A study of Mus musculus with 3 samples.

Results

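Sdk1 encodes sidekick-1, a cell adhesion molecule of the immunoglobulin superfamily, and it is the PARP-1 target that the study followed up functionally in the nucleus accumbens. The members described here are all sites that the authors' table of differential PARP-1 binding assigns to Sdk1 by gene name. There were 2 such sites among 1727 listed sites, both in the gene body on chromosome 5 of mm9. The series profiled PARP-1 by ChIP-seq, the sequencing of cross-linked chromatin fragments pulled down with an antibody, in nucleus accumbens of C57BL/6 mice. The cocaine group received cocaine at 20 mg/kg by intraperitoneal injection once a day for 7 days, and the saline group received saline on the same schedule. Animals of both groups were killed 30 min after the last injection, and punches from 10 mice were pooled for each ChIP replicate. The labels state no age, and 3 replicates per group, but each site of the table has 2 values after cocaine (n = 2) and 3 after saline (n = 3). Because the punches hold all cell types of the tissue, a change in a few cells and a smaller change in many cannot be told apart, and the table has no measure from which the tissue could be checked against marker genes.

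PARP-1 is a nuclear enzyme that binds chromatin and uses NAD to build chains of ADP-ribose on histones, on other chromatin proteins and on itself, which can loosen chromatin. Sidekick-1 and its paralog sidekick-2 are transmembrane proteins with stacks of immunoglobulin and fibronectin type III domains outside the cell. Each binds its own kind on the facing cell, and in the retina of mouse and chick they take part in matching synaptic partners. Their short cytoplasmic tails bind the MAGI scaffold proteins, which hold them at synapses.

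PARP-1 signal at both Sdk1 sites was higher after cocaine in every replicate. At the first site (142251901 to 142253100) the normalized read count was 18.89 and 18.18 in the cocaine replicates and 6.37, 6.38 and 4.37 in the saline replicates. The groups did not overlap, and the lowest cocaine value exceeded the highest saline value by 11.8 normalized reads. The cocaine mean was 18.5 ± 0.50 (SD, n = 2) and the saline mean was 5.71 ± 1.16 (SD, n = 3), a ratio of 3.25. At the second site (142272701 to 142273700) the normalized read count was 13.14 and 14.77 after cocaine and 1.06, 4.56 and 3.28 after saline. The groups were again apart, by 8.58 normalized reads, and saline replicate 1 was the lowest value. The means were 14.0 ± 1.15 (SD, n = 2) and 2.97 ± 1.77 (SD, n = 3), a ratio of 4.70.

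**Figure D1:**
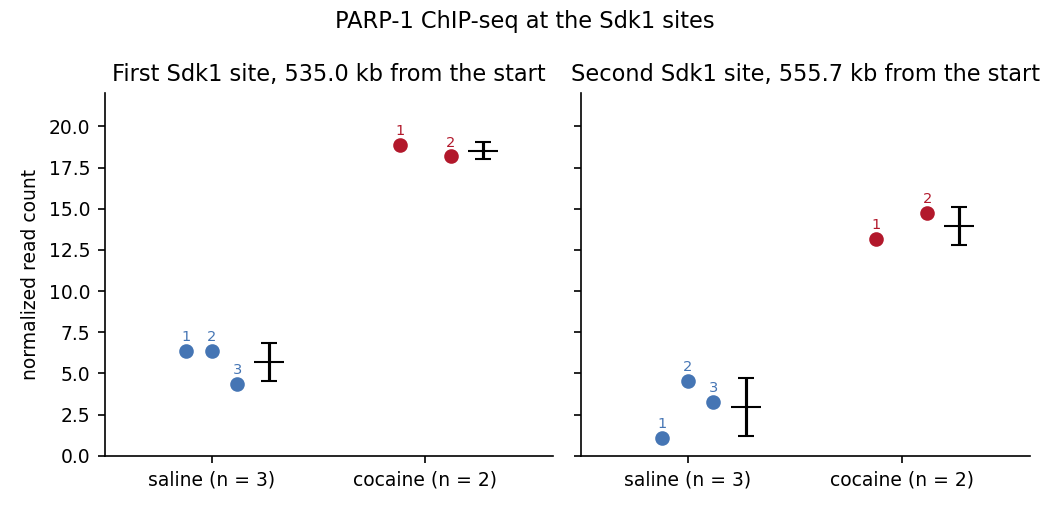
Normalized PARP-1 read count (y axis) at each Sdk1 site in each replicate (numbered points, in the order of the deposited table), with the group mean and SD as black bars. At both sites all cocaine points (13.14 to 18.89) lie above all saline points (1.06 to 6.38).

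On the log2(value + 1) scale limma estimated a log2 fold change of 1.56 ± 0.26 (SE) at the first site and 2.03 ± 0.46 (SE) at the second, with Benjamini-Hochberg adjusted p = 0.00537 and 0.00822 over the 1727 sites. Of all listed sites 90.2% were higher after cocaine and passed the same test, and at 92.2% every cocaine replicate lay above every saline replicate. The authors selected the listed sites on these same libraries, so passing was close to fixed and the test adds no independent evidence for Sdk1. Without cocaine replicate 1 the log2 fold changes were 1.53 and 2.11, and without cocaine replicate 2 they were 1.58 and 1.95. Each of these fits had 1 cocaine sample, assumed to vary like the saline samples. Calls were lost in both fits, at Sdk1 sites and across the whole list.

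The counts behind these values were small. At the first site the libraries held 23 and 16 reads after cocaine and 6, 7 and 4 after saline. At the second they held 16 and 13 after cocaine and 1, 5 and 3 after saline. Cocaine libraries thus gave 39 of 56 reads (69.6%) at the first site and 29 of 38 reads (76.3%) at the second, where their share of the depth was 41.5%. An exact conditional test on these reads gave ratios of 3.23 (exact 95% interval 1.79 to 6.09) and 4.54 (2.09 to 10.9), with adjusted p = 7.64e-05 and 6.35e-05. They take in counting error alone, and copies made by PCR were not told apart from separate molecules. By this test 91.9% of all listed sites were higher at an adjusted p under 0.05.

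In its cocaine count the second site sat at the low edge of the list. Its 13.14 normalized reads (16 reads) in cocaine replicate 1 equalled the lowest value of that replicate at any of the 1567 higher sites with a mean count under 100, a minimum reached at 280 of them. Its saline mean was low as well, with 94.9% of these sites above it. In the authors' deposited table its log2 fold change of 2.23 had 95 of the 1605 higher sites above it, and this large ratio went with a low saline count and not with a high cocaine count. The first site was the opposite case in its counts. Its cocaine mean lay above 83.3% and its saline mean above 81.9% of the 1567 sites. In the authors' deposited table its log2 fold change of 1.70 was below the median of 1.84 over the higher sites. The authors also deposited a p-value for a window within each site, and by it the second site was not at an edge. There 72.5% of the 1605 higher sites had a larger value than the second site, and 25.6% a larger value than the first.

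Both sites lay deep in the gene. Sdk1 spans 972.3 kb on the plus strand in the table (141717487 to 142689744), and the middles of the sites were 535.0 and 555.7 kb from the transcription start, at 55.0% and 57.2% of the gene's length. They were 437.2 and 416.5 kb from its end. The table calls both gene body and does not say whether they are exonic or intronic. The sites are 1200 and 1000 bp long, so listed sites covered 0.226% of the gene, and 0 of the listed sites lay at its promoter. Whether PARP-1 was bound elsewhere in Sdk1 without a difference between groups cannot be read from a list of differential sites.

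A gap of 19.6 kb separated the Sdk1 sites. The median gap between neighbouring listed sites of a mean count under 100 was 910.5 kb, and 39 of 1638 such gaps (2.38%) were as short as that in Sdk1 or shorter. On the other sides the nearest listed sites were far off. The next one toward the start of the chromosome was 1465.4 kb away in Mad1l1, the gene of a spindle checkpoint protein, with a mean of 16.0 normalized reads in the cocaine group and 4.37 in the saline group. The next one in the other direction was 4701.5 kb away, outside genes, at 14.2 and 4.08. Chromosome 5 carried 106 listed sites, 100 of them higher and 6 lower.

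**Figure D2:**
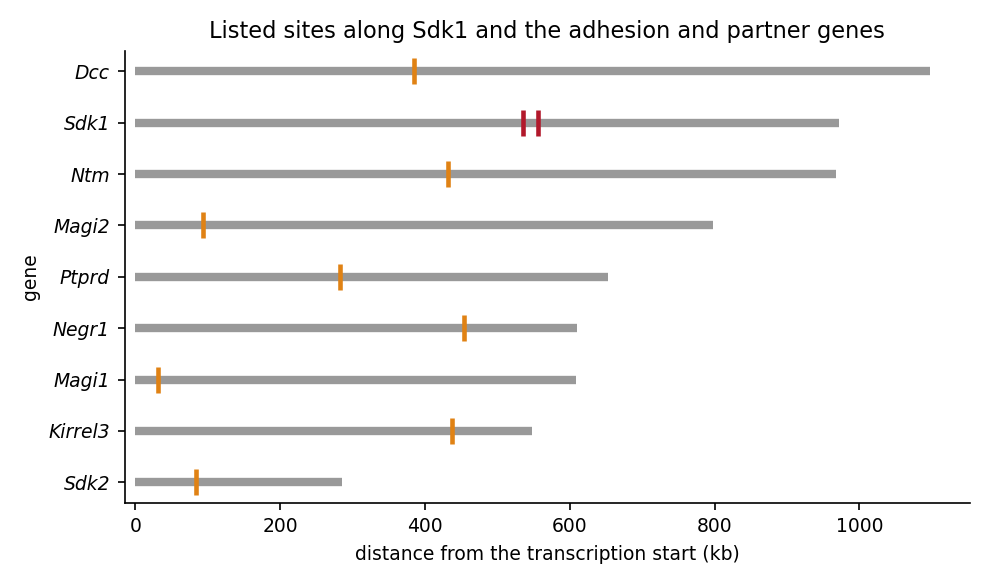
Distance of each listed site from the transcription start in kb (x axis; vertical ticks) along Sdk1 and the 8 other adhesion and partner genes with a site (grey bars drawn to each gene's length). The Sdk1 ticks at 535.0 and 555.7 kb stand close together, and each other gene has 1 tick.

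Most listed genes about as long as Sdk1 held 1 site. Of the 23 genes of 800 to 1200 kb with a site, 15 held 1 site, 5 including Sdk1 held 2 and 3 held 3. Among the 8 with more than 1 site, the closest sites of the other 7 were 61.1 to 325.8 kb apart. Sdk1 was the 21st longest of the 688 genes with a site. Across genes of any length with at least 2 sites of a mean count under 100, 11 of 51 had sites no farther apart than those in Sdk1, Sdk1 included. These counts describe the listed genes, and no test was made of them.

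Summed over both sites, Sdk1 held 32.03 and 32.95 normalized reads in the cocaine replicates and 7.43, 10.94 and 7.65 in the saline replicates. The cocaine replicates were the highest 2 of the 5 libraries, with means of 32.5 ± 0.65 (SD, n = 2) and 8.67 ± 1.97 (SD, n = 3) and a ratio of 3.75. The two-sided exact permutation test gave p = 0.1, the smallest value that 2 against 3 replicates allow, so it could not pass 0.05. Whether the sites differ in their change could not be shown with this number of replicates, since the same limit holds. The log2 ratio of the first to the second site was 0.49 and 0.28 after cocaine and 1.84, 0.41 and 0.33 after saline, a difference in means of -0.47 (exact permutation p = 0.8), and without saline replicate 1 it was 0.019. Per kb the first site held 15.4 normalized reads in cocaine and 4.76 in saline replicates on average, and the second 14.0 and 2.97, so the sites were closer in density after cocaine than their counts show.

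The authors' enrichment over background placed both sites low. In the authors' deposited table the enrichment of the first site was 1.57 after cocaine and 0.51 after saline, and that of the second was 1.14 and 0.25, where 1 means equal to background. Of the 1605 higher sites 89.0% and 98.4% had a higher cocaine enrichment than the first and the second site, against a median of 2.62. After saline 3 higher sites lay below the second site, and the median over the higher sites was 0.79, also below background. Dividing each group average by its enrichment gives the background level that the authors' values imply, which was 11.8 and 12.2 normalized reads for the first and the second site after cocaine. It exceeded that of 92.0% and 92.3% of the 1603 higher sites for which it can be computed, whose median was 6.15. After saline the implied background was 11.2 and 11.9. Because the implied background is computed from the enrichment, the low enrichment and the high implied background are not separate observations. The cocaine counts of the first and the second site lay above 83.3% and 8.62% of the 1567 sites. How the authors set this background is not given in the sources used here, and its part in the result was not tested. The series also holds a DNA input sample, and whether it served for this background is likewise not given.

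**Figure D3:**
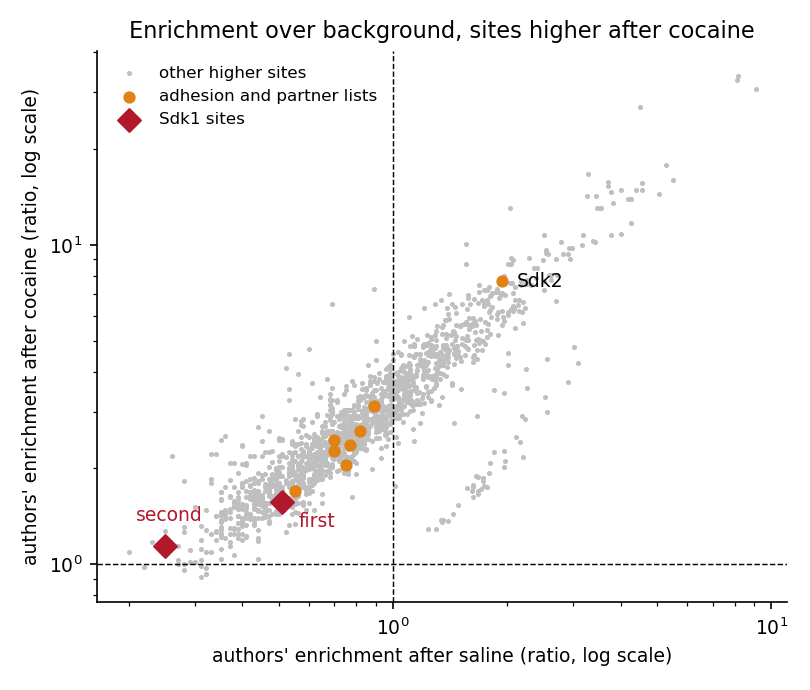
The authors' enrichment over background after saline (x axis) and after cocaine (y axis), both as ratios on log axes, for sites higher after cocaine (points), with dashed lines at 1. The Sdk1 sites (diamonds) lie at 0.51 and 1.57 and at 0.25 and 1.14, in the low corner, and the Sdk2 site lies at 1.94 and 7.70.

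Sdk2, the gene of the paralog sidekick-2, held 1 listed site in its gene body on chromosome 11 (113842701 to 113843800), 84.0 kb from its start. It held 15.61 and 15.91 normalized reads after cocaine and 5.31, 2.74 and 3.28 after saline, so its counts fell between those of the Sdk1 sites after cocaine. The groups did not overlap, as at 92.2% of all listed sites, and the log2 fold change was 1.85 ± 0.31 (SE; limma adjusted p = 0.00537). In the authors' deposited table its enrichment was 7.70 after cocaine and 1.94 after saline, from an implied background of 2.05 normalized reads. The paralogs thus had like counts at their sites but unlike enrichments, and this difference was not tested. Sdk2 had the highest cocaine enrichment of the 8 adhesion and partner sites outside Sdk1. Their median was 2.405, and the lowest was 1.70 at Negr1, close to the 1.57 of the first Sdk1 site. Of the 3 MAGI scaffold genes, Magi1 and Magi2 each held 1 higher site and Magi3 held 0. Magi1 held 16.43 and 13.64 normalized reads in the cocaine replicates and 6.37, 3.65 and 3.28 in the saline replicates, and rose by a log2 fold change of 1.60 ± 0.32 (SE; limma adjusted p = 0.00647). Magi2 held 17.25 and 20.45 after cocaine and 7.43, 3.65 and 8.73 after saline, and rose by 1.45 ± 0.38 (SE; limma adjusted p = 0.0127). As with Sdk1, the authors selected these sites on the same libraries, and 90.2% of all listed sites were higher and passed limma's test. Passing thus adds no independent evidence for Sdk2, Magi1 or Magi2.

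**Figure D4:**
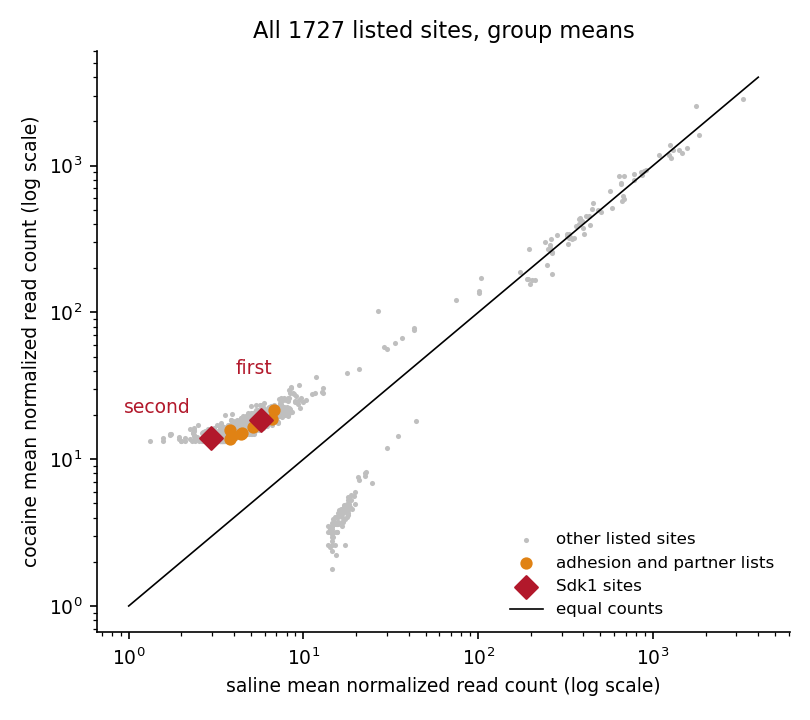
Mean normalized read count after saline (x axis) and after cocaine (y axis), both on log axes, of all 1727 listed sites, with the line of equal counts. The Sdk1 sites (diamonds, means of 18.5 against 5.71 and 14.0 against 2.97) lie within the cloud of higher sites of low count, along with the adhesion and partner genes.

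Among 76 symbols of immunoglobulin-superfamily adhesion and guidance genes, older names included, 7 genes had a listed site, Sdk1 and Sdk2 among them. Of their 8 sites 8 were higher and 0 lower, and 8 passed limma's test, near the 90.2% of all listed sites that were higher and passed and the 721 of 770 sites with a gene name. Without cocaine replicate 2, a fit with 1 cocaine sample, limma's calls among the 8 were lost, as across the whole list. The exact conditional test on all libraries called 8 of the 8 higher at an adjusted p under 0.05, and 1587 of all listed sites. The median log2 fold change of the 8 sites was 1.62. It was 1.67 over all listed sites, lower ones included, and 1.69 over the higher sites. The 69 other symbols, among them Dscam, the contactins and Ncam1, held 0 listed sites. Negr1 and Ntm, genes of neuronal adhesion molecules anchored to the membrane by a lipid, rose from 5.12 ± 1.25 to 16.6 ± 0.95 and from 3.92 ± 2.19 to 14.4 ± 0.57 normalized reads. Ptprd, the gene of a presynaptic receptor phosphatase, rose from 4.38 ± 1.03 to 14.8 ± 0.01, and Kirrel3, the gene of a homophilic adhesion molecule related to nephrin, rose from 3.80 ± 1.46 to 13.8 ± 0.23. Dcc, the gene of a netrin receptor, rose from 6.81 ± 1.75 to 21.8 ± 2.93 (all ± SD, n = 3 after saline and n = 2 after cocaine). Of the 10 sites of these lists and the MAGI genes, the second Sdk1 site had the largest log2 fold change, the lowest saline mean and the lowest enrichment in both groups. Its SE of 0.46 was also the largest, and its interval of 1 SE overlapped those of the others. Its lead in fold change depended on saline replicate 1. Without that replicate its log2 fold change was 1.61, against 1.63 at the first Sdk1 site.

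**Figure D5:**
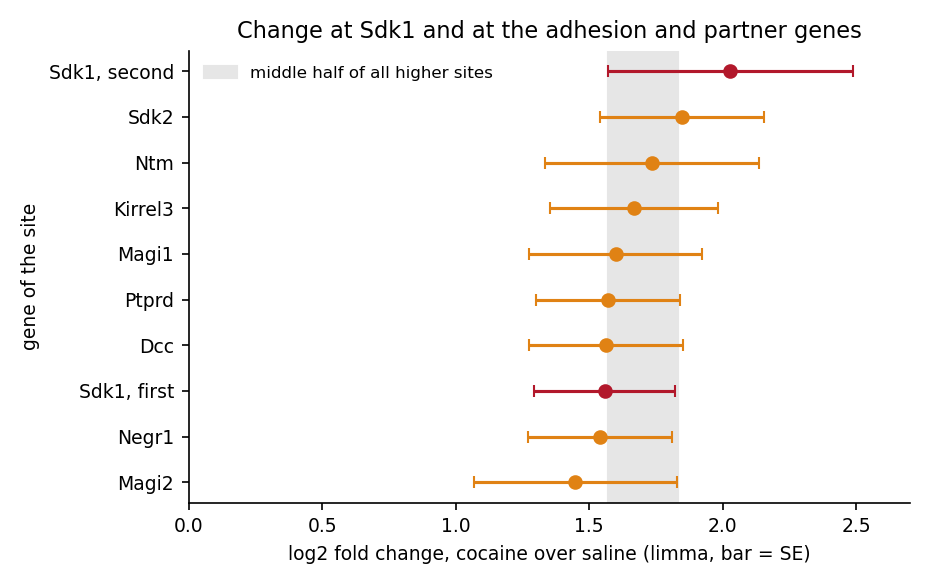
limma log2 fold change of cocaine over saline (x axis; points, with SE as bars) at the Sdk1 sites and at the sites of the other adhesion and partner genes. The grey band runs from 1.57 to 1.83, the quartiles over all higher sites, and every bar reaches into it.

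The patterns most like those of Sdk1 were measured by the Euclidean distance of log2(value + 1) over the 5 libraries, among 768 sites in or near other genes. For the first site the nearest were Rnf144b (0.27), Dpy19l2 (0.27) and Frmd5 (0.28), against a median distance of 1.20. Rnf144b held 18.89 and 18.18 normalized reads after cocaine and 6.37, 6.38 and 5.46 after saline, and so differed from the first Sdk1 site by 1 read in 1 library. For the second site the nearest were Rnf141 (0.11), Slc24a4 (0.26) and 4931406B18Rik (0.29), against a median of 1.68. Rnf141 held 13.14 and 13.64 after cocaine and 1.06, 4.56 and 3.28 after saline, again 1 read from the Sdk1 site. At counts this low many sites lie within a few reads of each other, and nearness in pattern is a description only.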

How the data were processed

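Per the labels, fragments of 250 to 350 bp were amplified with 21 PCR cycles and read at 100 bp, and the submitters' processing notes name mm9 and CASAVA 1.8.2. The aligner and the listing threshold are not given in the sources used here. Treatment was taken as cocaine and control as saline, from the table's name and the design text. The count columns, as deposited, give the normalized read count of each replicate, which the authors had scaled by 1 factor per library. The deposited averages are a signal, the mean normalized count of a group. The deposited enrichment is a ratio over the authors' background. The authors' fold change is a log2 ratio, and the deposited p-values are theirs.

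Whole reads were recovered within 0.1 read for 100% of values. Over the listed sites libraries held 46406 to 82360 reads. By the authors' scaling factors, a separate measure of depth, the shallowest library had 72.3% of the depth of the deepest. limma 3.58.1 in R 4.3.3 compared the groups on log2(value + 1), which understates changes at low counts, over all 1727 sites with no filter. It was tried on simulated reads with counting error alone, with most of the 1727 sites unchanged. There 49 of 100 sites changed 4-fold, 3 of 100 changed 2-fold and 2 of 1527 unchanged sites were called. In the data 95.5% of listed sites passed in either direction, which makes the adjusted threshold more lenient. The simulated rates therefore do not carry over to the list. The exact conditional test compared the cocaine share of reads with the cocaine share of depth.

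The members and lists were chosen with earlier results of these data known. Named genes were Sdk1, listed genes with a site, the nearest listed sites on each side and the 3 genes nearest in pattern per site. The adhesion list took 76 symbols, of which 70 matched current RefSeq symbols.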

Additional observations from a re-analysis of the deposited data

How the results depend on the processing

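Both Sdk1 sites kept their direction and passed limma's test with a pseudocount of 0.5, without sites of a mean count of 100 or more, on unscaled reads, with libraries scaled to the 69 sites of high count and without each saline replicate. The exact conditional test, chosen after seeing the data, gave log2 ratios of 1.69 and 2.18. Leaving out each replicate gave limma log2 fold changes of 1.41 to 1.63 at the first site and 1.61 to 2.33 at the second. Only leaving out a cocaine replicate ended a call, at both sites without cocaine replicate 2 (1.58 and 1.95) and at the second without cocaine replicate 1 (2.11). These fits have fewer samples. The same fits moved the number of higher sites passing, 1558 with all replicates, to between 0 and 1560, that of lower sites, 91, to between 0 and 91, and that of the adhesion list, 8, to between 0 and 8. The count of 0 came without cocaine replicate 2. The difference between the Sdk1 sites in their change ranged from -0.74 to 0.019 and turned sign without saline replicate 1 (0.019). The summed difference of 23.8 normalized reads was 23.2 to 24.95 without each replicate, 25.3 on unscaled reads and 23.8 with libraries scaled to the sites of high count. No paired analysis was possible because the table's replicate values carry no numbers shared between groups. The planned edgeR fit was not run, and the exact conditional test on the recovered reads took its place. At 1 to 7 saline reads per library, depth limits the precision of the ratios.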
